A study of Homo sapiens with 3 samples.

Results

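The genes ATF5, LONP1, CLPP, CLPX, YME1L1, OMA1, AFG3L2, SPG7, HTRA2 and CLPB were followed in H660 cells given the HSP70 inhibitor JG231. They were chosen by name as mitochondrial proteases, their relatives and a stress factor, and each of the 10 matched 1 row of the 58735 genes in the table. H660 is a human cell line of neuroendocrine prostate cancer, which the labels describe as parental and as a prostatic adenocarcinoma. JG231 is an allosteric compound that keeps HSP70 bound to its clients, and the study used it to lower N-Myc protein. The groups were 1 library each of cells given the vehicle DMSO, 2.5 μM JG231 or 5 μM JG231 for 24 h, all from the same line. No condition had a replicate, so no standard deviation and no p-value can be given for any gene.

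Mitochondria take up most of their proteins unfolded and keep their own set of ATP-driven proteases to remove those that misfold. LONP1 and the CLPX-CLPP complex work in the matrix. The AAA proteases of the inner membrane face either the matrix, as those of AFG3L2 and SPG7 do, or the intermembrane space, as that of YME1L1 does. OMA1 is a stress-activated peptidase of the inner membrane, HTRA2 is a serine protease of the intermembrane space, and CLPB is a disaggregase there that has no protease of its own. ATF5 is a bZIP transcription factor of the mitochondrial unfolded protein response, whose translation is controlled by upstream reading frames, so that its RNA level does not give its protein level.

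Values are FPKM, the fragments of a gene scaled to its length and to the size of the library. The low values of the table fell on whole steps of 1 fragment, from which the libraries held about 16087619 fragments (DMSO), 20373154 (2.5 μM) and 24061350 (5 μM). For each of the 10 genes the shortest length was taken that made the FPKM of all 3 libraries whole numbers of fragments within 0.005. Multiples of that length can pass too, so these numbers are given as the smallest fragment counts that the table allows. They ran from 288 for ATF5 in DMSO to 9916 for LONP1 at 5 μM. Intervals at the 95% level were computed from these counts. They are those of the change with no pseudocount and cover counting error only, since copies made by PCR are not independent molecules, and they say nothing of the spread between cultures.

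The label of the cells was checked against markers. Of the neuroendocrine genes, CHGA had 46.0 FPKM with DMSO and was lower with JG231, at 12.7 with 5 μM. In DMSO, 2.5 μM and 5 μM, ENO2 had 37.0, 30.8 and 27.8 FPKM and SYP 17.7, 13.0 and 14.8, and NCAM1 and INSM1 were above 1 FPKM in every library. The luminal genes KLK3 and TMPRSS2 had at most 0.134 and 0.315 FPKM in any library, although the labels call the cells adenocarcinoma. PTPRC, PECAM1 and DCN, which mark leukocytes, endothelium and fibroblasts, were listed at 0 in all libraries, and with COL1A1 and COL1A2 the markers of other cell types summed to 0.84, 0.811 and 1.32 FPKM. Transcripts of the mitochondrial genome made up 39.8% of the FPKM sum in DMSO, 24.1% at 2.5 μM and 28.8% at 5 μM, which bears on every change below. Rescaling the libraries to a common sum without these and small RNA genes moved the median of genes averaging 1 FPKM or more from 0.00 to -0.28 on the log2 scale at 2.5 μM and from -0.01 to -0.38 at 5 μM.

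LONP1, CLPP and CLPX, the proteases of the matrix, stood at about the same raised level in both JG231 libraries. Because these genes were higher together at both doses, the 250 bases before a RefSeq start of LONP1 and of CLPX are shown (GRCh38.p14, read 5′ to 3′ on the strand of the gene, which is the minus strand for both). Capitals mark CACGTG, the E-box that MYC proteins can bind, and CCAAT, which reads ATTGG on the other strand.
LONP1, chr19:5720147-5720396: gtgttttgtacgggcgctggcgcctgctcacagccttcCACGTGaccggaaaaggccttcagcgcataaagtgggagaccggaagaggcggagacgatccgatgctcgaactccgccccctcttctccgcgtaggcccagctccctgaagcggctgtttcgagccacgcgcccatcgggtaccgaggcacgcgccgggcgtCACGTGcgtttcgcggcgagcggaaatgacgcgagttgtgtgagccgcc
CLPX, chr15:65185343-65185592: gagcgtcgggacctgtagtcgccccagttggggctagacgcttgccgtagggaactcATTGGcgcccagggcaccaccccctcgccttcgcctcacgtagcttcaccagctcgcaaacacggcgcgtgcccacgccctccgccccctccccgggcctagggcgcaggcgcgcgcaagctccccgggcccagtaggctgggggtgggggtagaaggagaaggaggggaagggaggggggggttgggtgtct
This LONP1 window held CACGTG at 2 places, which begin 212 and 49 bases before the start. LONP1 has a second RefSeq start nearer to the GENCODE gene start, and its window held none. This motif was searched only after the windows had been seen, and 6.34% of 35116 promoter windows of the same length held it. The CLPX window held 1 CCAAT, which begins 193 bases before the start, as 32.0% of all windows did at least once. CLPB, which was not higher at either dose, had a CCAAT at a similar place, 183 bases before its start. The composite element TGATGNAAT of C/EBP and ATF factors and the cyclic AMP element TGACGTCA were in none of the 13 windows of the 8 genes with an entry, on either strand, and were in 0.888% and 1.65% of all windows. The match of letters is a description and shows no binding. CLPP and YME1L1 had no entry.

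LONP1 (ENSG00000196365, chromosome 19, 5691834 to 5720572 on GRCh38) encodes the ATP-driven Lon protease, which degrades oxidised and misfolded matrix proteins. It had 37.5 FPKM with DMSO, 81.5 with 2.5 μM and 81.0 with 5 μM JG231, on 3070, 8444 and 9916 fragments. Both JG231 libraries stood well above DMSO and close to each other. The log2 change, computed from FPKM with a pseudocount of 0.1, was 1.12 at 2.5 μM (counting interval 1.06 to 1.18) and 1.11 at 5 μM (1.05 to 1.17). It was larger than that of 82.8% and 77.6% of the 500 genes nearest in mean FPKM.
CLPP (ENSG00000125656, chromosome 19, 6361531 to 6370242) encodes the barrel-shaped peptidase that cuts what CLPX delivers to it. It had 19.5 FPKM with DMSO, 38.6 with 2.5 μM and 39.6 with 5 μM JG231. The 3 values again put both JG231 libraries together, above DMSO. Its log2 change was 0.98 at 2.5 μM (0.86 to 1.11) and 1.01 at 5 μM (0.90 to 1.14).
CLPX (ENSG00000166855, chromosome 15, 65148219 to 65185342) encodes the unfoldase that recognises substrates and threads them into CLPP. It had 6.62 FPKM with DMSO, 13.6 with 2.5 μM and 12.7 with 5 μM JG231, which are log2 changes of 1.03 (0.90 to 1.18) and 0.93 (0.80 to 1.08). Among the 500 genes nearest in mean FPKM, 90.8% had a smaller change at 2.5 μM and 89.0% at 5 μM. The ratio of CLPX to CLPP, which does not depend on how a library is scaled, was 0.339 with DMSO, 0.354 with 2.5 μM and 0.322 with 5 μM JG231. Its log2 change from DMSO was 0.06 (-0.13 to 0.25) and -0.08 (-0.26 to 0.11). As deposited, a difference from DMSO in the balance of the 2 subunits was therefore not detectable at this depth. Between the JG231 libraries the log2 ratio was lower at 5 μM, with a difference of -0.14 (-0.27 to -0.0021). LONP1 and CLPP also kept near the same proportion, with a ratio of 1.92, 2.11 and 2.05. Both ratios can still carry the trend of the changes with transcript length. With this trend removed, CLPX was at 1.17 at 2.5 μM and 1.13 at 5 μM, and LONP1 at 1.10 and 1.07. CLPP was then at 0.88 and 0.83, below both, so the kept proportions depend on this setting. These 3 genes were higher at both doses under every scaling tried. Their lowest values came from the common sum without mitochondrial and small RNA genes, 0.83, 0.69 and 0.74 for LONP1, CLPP and CLPX at 2.5 μM and 0.73, 0.64 and 0.55 at 5 μM.

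**Figure D1:**
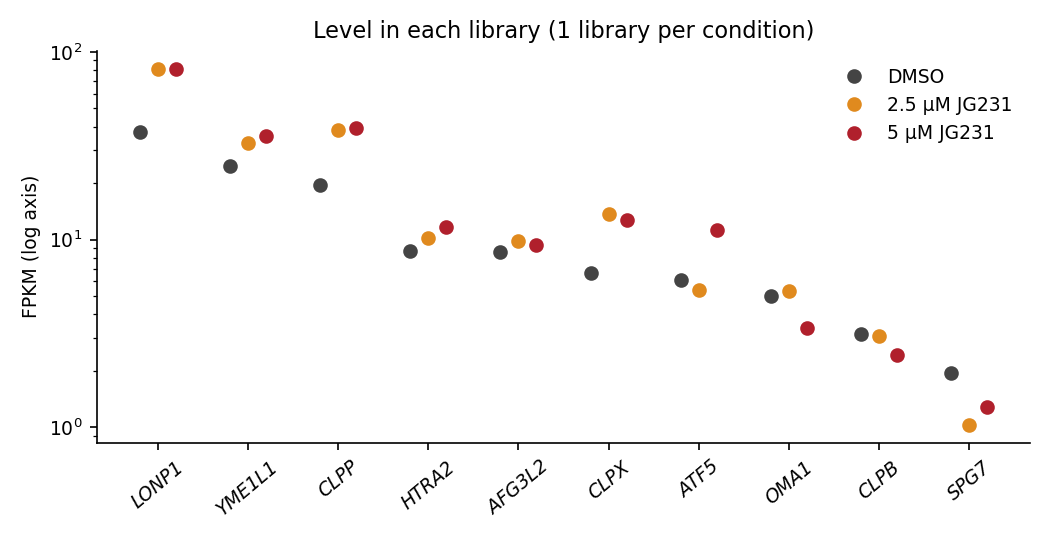
FPKM on a log axis for the 10 genes, ordered by the DMSO level, with 1 point per library (dark grey DMSO, orange 2.5 μM JG231, red 5 μM JG231). The 2 JG231 points of LONP1, CLPP and CLPX lie together above DMSO, whereas the 5 μM point of ATF5 stands apart at 11.2 FPKM.

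YME1L1 (ENSG00000136758, chromosome 10, 27110111 to 27155266) encodes the AAA protease that faces the intermembrane space and also cleaves the fusion protein OPA1. It had 24.5 FPKM with DMSO, 32.9 with 2.5 μM and 35.7 with 5 μM JG231, on at least 2894 fragments. Its log2 change was 0.42 at 2.5 μM (0.36 to 0.49) and 0.54 at 5 μM (0.48 to 0.60), past the study's threshold of 0.25, but 0.13 and 0.16 with the common sum without mitochondrial and small RNA genes. About as many genes of similar level had a smaller change as a larger one, since 51.4% were below it at 2.5 μM and 54.6% at 5 μM.
OMA1 (ENSG00000162600, chromosome 1, 58415384 to 58546802) encodes the peptidase that cleaves OPA1 and DELE1 when the membrane potential is lost. It had 4.98 FPKM with DMSO, 5.29 with 2.5 μM and 3.39 with 5 μM JG231, on 298, 401 and 303 fragments. The 5 μM library was the low one. The log2 change was 0.09 at 2.5 μM (-0.13 to 0.30) and -0.54 at 5 μM (-0.79 to -0.33). The value at 2.5 μM was -0.20 with the same rescaling and -0.09 with the trend by transcript length removed, and that at 5 μM was -0.92 and -0.85. YME1L1 and OMA1 turn each other over and share the substrate OPA1, and their FPKM ratio was 4.92 with DMSO, 6.21 with 2.5 μM and 10.5 with 5 μM JG231. This ratio was 0.33 higher on the log2 scale at 2.5 μM (0.11 to 0.56) and 1.10 higher at 5 μM (0.86 to 1.34). With the trend by transcript length removed, YME1L1 was at 0.52 and 0.68 and OMA1 at -0.09 and -0.85, a wider gap at both doses.

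AFG3L2 and SPG7 encode the subunits of the AAA protease that faces the matrix. AFG3L2 (ENSG00000141385, chromosome 18, 12328944 to 12377227) had 8.56 FPKM with DMSO, 9.81 with 2.5 μM and 9.33 with 5 μM JG231. Its log2 changes of 0.19 (0.08 to 0.32) and 0.12 (0.01 to 0.24) were under the threshold and turned to -0.09 and -0.25 with the common sum without mitochondrial and small RNA genes. With the plain common sum the value at 5 μM was -0.01.
SPG7 (ENSG00000197912, chromosome 16, 89490719 to 89557766), the paraplegin gene, had 1.94 FPKM with DMSO, 1.03 with 2.5 μM and 1.28 with 5 μM JG231, on 1122, 756 and 1111 fragments. Both JG231 libraries were below DMSO, the 2.5 μM library more so. Among the 500 genes nearest in mean FPKM, 39.8% had a lower change at 2.5 μM and 48.8% at 5 μM, so its change lay near the middle of theirs. Its log2 change was -0.85 with 2.5 μM and -0.56 at 5 μM. Computed on fragments with no pseudocount, it was -0.91 (-1.04 to -0.78) and -0.59 (-0.71 to -0.48).
The length that turned the SPG7 values into whole fragments was 36008 bp, 11.7 times its canonical transcript of 3076 bp. GENCODE release 44 lists 96 transcripts of this gene, and their joined exons start 17669 bases before the first RefSeq start. Its FPKM is therefore low for its fragments, which may come from any of these joined exons. Scaled to the canonical transcript instead, on the scale of FPKM, SPG7 would stand at 22.7 in DMSO, above AFG3L2 at 17.9. The ratio of AFG3L2 to SPG7 was 4.42 in FPKM with DMSO, 9.52 with 2.5 μM and 7.28 with 5 μM JG231. It was 1.11 higher on the log2 scale at 2.5 μM (0.93 to 1.29) and 0.72 higher at 5 μM (0.55 to 0.89). The part of the added exon length in this ratio was not tested.
HTRA2 (ENSG00000115317, chromosome 2, 74529596 to 74533350), a protease that can also enter the cytosol and cut inhibitors of apoptosis, had 8.72 FPKM with DMSO, 10.2 with 2.5 μM and 11.6 with 5 μM JG231. Its log2 change was 0.23 (0.05 to 0.41) and 0.41 (0.25 to 0.58), past the threshold at 5 μM, but -0.06 and 0.04 with the common sum without mitochondrial and small RNA genes. Exons of LOXL3 and AUP1 on the other strand cover 27.5% and 4.85% of its exon bases, and the labels name a stranded library but it is not stated whether counting used the strand. AUP1 had 41.7 FPKM with DMSO, 108 with 2.5 μM and 110.1 with 5 μM JG231, while LOXL3 had 2.64, 1.59 and 1.33, and their part in the HTRA2 value was not tested. Exons of other genes also overlap AFG3L2 (TUBB6, other strand, 11.7% of its exon bases), OMA1 (DAB1, same strand, 6.91%) and YME1L1 (MASTL, other strand, 6.04%). MASTL had 11.1, 17.0 and 17.3 FPKM, and its part in the YME1L1 value was not tested. RPL36 on the other strand covers 42 exon bases of LONP1 (0.835%), with 70.2, 198 and 233 FPKM, and its part in the LONP1 value was not tested. The largest overlap of CLPB is with a lncRNA on the other strand, 5.74% of its exon bases, which was listed at 0 in all libraries.
CLPB (ENSG00000162129, chromosome 11, 72285495 to 72434680) had 3.14 FPKM with DMSO, 3.06 with 2.5 μM and 2.42 with 5 μM JG231. The 2.5 μM library lay at the DMSO level and the 5 μM library below it. The log2 change was -0.04 (-0.19 to 0.11) at 2.5 μM and -0.36 (-0.53 to -0.22) at 5 μM. Of the 500 genes nearest in mean FPKM, 53.2% had a lower change at 5 μM, so CLPB lay near their middle. The value at 2.5 μM ran from -0.32 to 0.32 over the scalings, and that at 5 μM became 0.20 when the trend of the changes with transcript length was removed. The canonical transcript of CLPB is long, with 9963 bp. The decile of longest transcripts had a median change of -0.52 at 5 μM, against 0.61 for the decile of shortest.

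**Figure D2:**
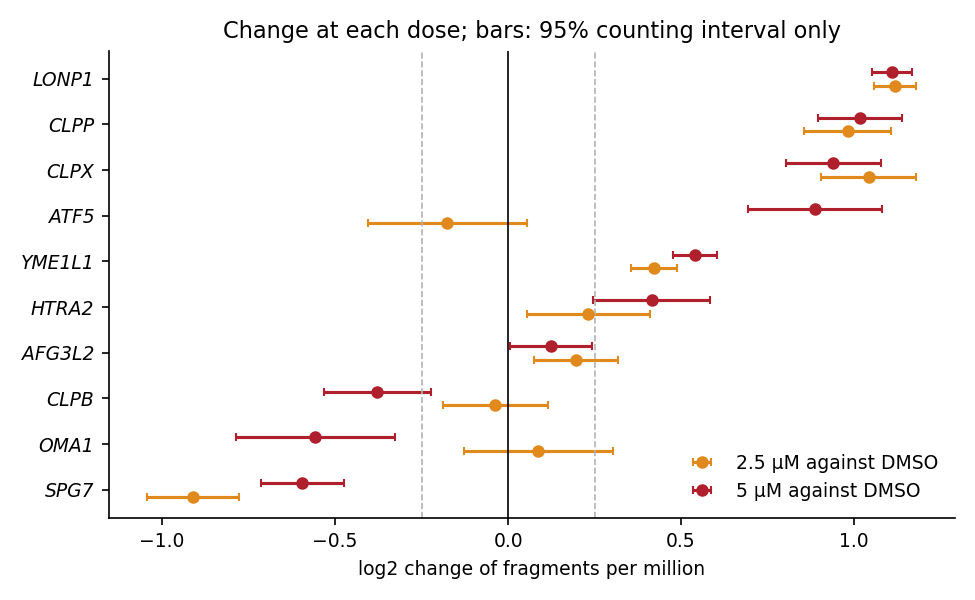
Log2 change of fragments, scaled for library size, against DMSO for the 10 genes at 2.5 μM (orange) and 5 μM JG231 (red), with bars for the 95% counting interval of 1 library per condition and dashed lines at -0.25 and 0.25. The intervals of the 2 doses do not overlap for ATF5, OMA1, SPG7 and CLPB, and overlap for LONP1, CLPP and CLPX.

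ATF5 (ENSG00000169136, chromosome 19, 49928702 to 49933935) was higher at 5 μM and not at 2.5 μM. It had 6.06 FPKM with DMSO, 5.37 with 2.5 μM and 11.2 with 5 μM JG231, on 288, 323 and 797 fragments. The DMSO and 2.5 μM libraries were close, and the 5 μM library stood above both. The log2 change was -0.17 at 2.5 μM (-0.40 to 0.05) and 0.88 at 5 μM (0.69 to 1.08). Between the JG231 libraries it was 1.05 (0.88 to 1.25). This was larger than the difference of 97.8% of the 500 genes nearest in mean FPKM, whose robust standard deviation between the JG231 libraries was 0.33. Of 15164 genes past the FPKM filter in both comparisons with DMSO, 675 (4.45%) were within 0.25 at 2.5 μM and higher by over 0.25 at 5 μM, as ATF5 was. A change over 0.75 at 5 μM was shared by 97 of them, or 0.640% of the 15164 genes, a limit chosen with the ATF5 value known. ATF5 itself left the range within 0.25 at 2.5 μM with the common sum without mitochondrial and small RNA genes (-0.46) and with the trend by transcript length removed (-0.33). Under every scaling tried the ATF5 value was below 0 at 2.5 μM, from -0.46 to -0.12, and above 0 at 5 μM, from 0.50 to 0.89. Exons of NUP62 on the other strand cover 19.5% of the exon bases of ATF5, and NUP62 had 15.6 FPKM with DMSO, 12.1 with 2.5 μM and 10.4 with 5 μM JG231. Its part in the ATF5 value was not tested.
The genes most like ATF5 were taken by the distance in the 2 log2 changes, over 3 libraries and 7045 protein-coding genes that averaged 5 FPKM or more. They were NFKBIE (distance 0.092), JTB (0.11), METTL1 (0.13), HLA-DPB1 (0.15) and STYXL1 (0.17). NFKBIE had 5.23, 4.34 and 9.76 FPKM in DMSO, 2.5 μM and 5 μM.
ATF4, the closest relative of ATF5, had 90.6 FPKM with DMSO, 278 with 2.5 μM and 331 with 5 μM JG231, which are log2 changes of 1.62 and 1.87. ATF5 stood at 0.067 of the ATF4 level in DMSO, at 0.019 at 2.5 μM and at 0.034 at 5 μM. The ratio of ATF5 to ATF4 was lower than in DMSO, with a log2 change of -1.79 at 2.5 μM (-2.03 to -1.56) and -0.98 at 5 μM (-1.18 to -0.78).

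**Figure D3:**
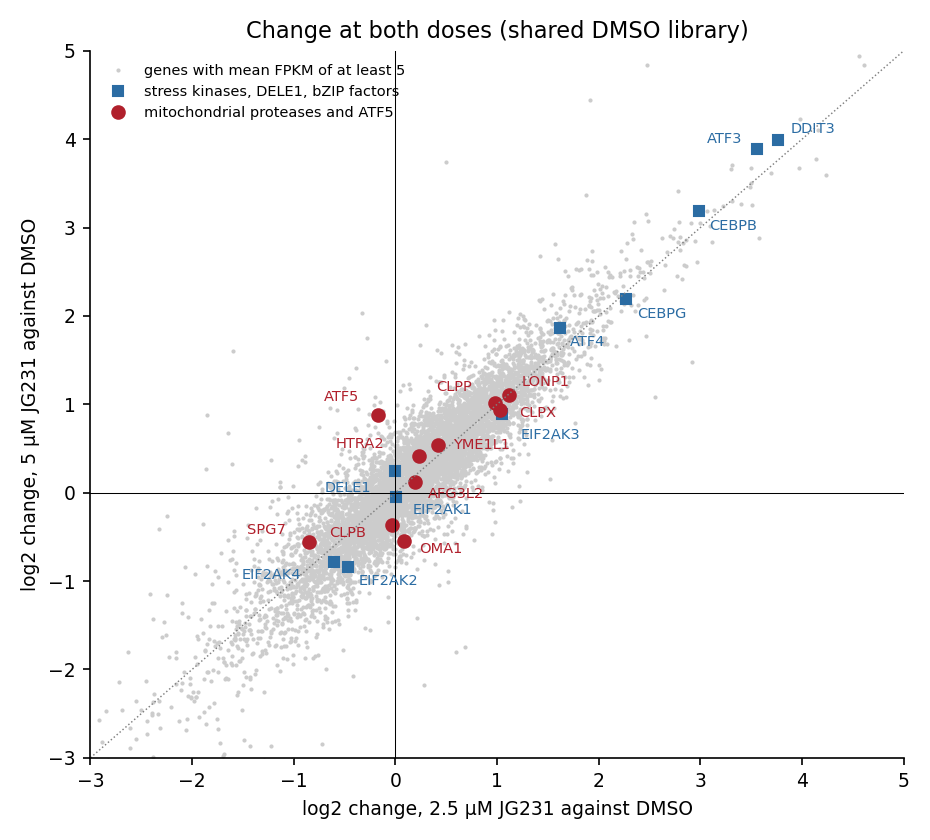
Log2 change against DMSO at 2.5 μM (horizontal) and 5 μM JG231 (vertical) for the 10 genes (red circles), the list of stress kinases, DELE1 and bZIP factors (blue squares) and 7583 genes averaging 5 FPKM or more (grey, genes beyond the axes not shown), with the line of equal change dotted. ATF5 lies above the line at -0.17 and 0.88, and both axes share the DMSO library.

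In DMSO the order of FPKM was LONP1, YME1L1, CLPP, HTRA2, AFG3L2, CLPX, ATF5, OMA1, CLPB and SPG7. HTRA2 and AFG3L2 differed by a ratio of 1.02, and CLPX and ATF5 by 1.09, with counting intervals of both differences that include 0. The same held for HTRA2 and AFG3L2 and for ATF5 and OMA1 at 2.5 μM, and for HTRA2 and ATF5 at 5 μM. At 2.5 μM and at 5 μM CLPP stood above YME1L1, and CLPX above HTRA2 and AFG3L2. LONP1 was first and OMA1, CLPB and SPG7 were the last 3 in every library by FPKM. The order depends on the length used, and not for SPG7 alone. Scaled to the canonical transcript in DMSO, OMA1 (9.95) stood above ATF5 (8.92) and CLPX (7.71), and AFG3L2 (17.9) above HTRA2 (14.7). On that scale CLPP stood below YME1L1 at 2.5 μM (36.5 and 57.5) and at 5 μM (37.4 and 62.4). CLPX (15.9 at 2.5 μM and 14.8 at 5 μM) then stood below HTRA2 (17.2 and 19.6) and AFG3L2 (20.6 and 19.6).
The study's filter asks for expression over 1 and a log2 change past 0.25, and was read here as an FPKM over 1 in either library. All 10 genes were above 1 FPKM in every library. At 2.5 μM 4 of 10 were higher and 1 lower, beside 36.4% higher and 43.4% lower of 15746 genes tested. At 5 μM 6 of 10 were higher and 3 lower, beside 36.5% and 45.1% of 15765 genes. With the common sum without mitochondrial and small RNA genes, 3 were higher and 3 lower at 2.5 μM, and 4 higher and 4 lower at 5 μM. In that scaling 24.6% of all genes tested were higher and 56.2% lower at 2.5 μM, and 22.9% were higher and 60.1% lower at 5 μM. At 2.5 μM the share of higher genes was near that of the table as a whole. With the threshold at 1, LONP1 and CLPX were higher at 2.5 μM (2 of 10, beside 12.9%) and LONP1 and CLPP at 5 μM (2 of 10, beside 14.7%), and 0 were lower, beside 21.7% and 24.3% of genes. The median change of the 10 genes was 0.21 at 2.5 μM and 0.48 at 5 μM. For all genes that averaged 1 FPKM or more the medians were 0.00 and -0.01, and for those that averaged 5 FPKM or more they were 0.21 and 0.23. Between the JG231 libraries, ATF5 and SPG7 were higher at 5 μM than at 2.5 μM and OMA1 and CLPB lower, beside 26.8% and 30.1% of 14197 genes. Past 1, ATF5 alone of the 10 was higher, beside 7.47%, and 0 were lower, beside 8.09%.

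The genes around these proteases were taken from lists of other mitochondrial peptidases, chaperones, partners and substrates, and stress kinases and factors. Among 13 other mitochondrial peptidases, 6 were higher and 3 lower at 2.5 μM, and 5 higher and 3 lower at 5 μM, with medians of 0.21 and 0.16. Of all genes tested as deposited, 36.4% and 36.5% were higher and 43.4% and 45.1% lower, so the share of higher peptidases lay near that of the table. Their medians lay near the 0.21 and 0.23 of genes averaging 5 FPKM or more, though several of the peptidases averaged less. They were above the medians of 0.00 and -0.01 of genes averaging 1 FPKM or more. ATP23, a processing peptidase of the intermembrane space, had 4.26 FPKM with DMSO, 7.01 with 2.5 μM and 9.32 with 5 μM JG231. IMMP1L, a subunit of the inner membrane signal peptidase, had 2.33, 4.68 and 4.94 FPKM. PARL, the rhomboid protease of the inner membrane, had 2.96, 7.12 and 5.08 FPKM. XPNPEP3, which trims N-terminal residues after import, had 2.30, 1.52 and 1.09. Of the 7 chaperones of the mitochondrial unfolded protein response, 5 were higher at each dose, beside the same 36.4% and 36.5% of all genes, but 2 at 2.5 μM and 3 at 5 μM with the common sum without mitochondrial and small RNA genes. GRPEL2, a nucleotide exchange factor, had 11.1, 29.8 and 25.4 FPKM. HSPA9, the HSP70 of mitochondria, had 56.9 FPKM with DMSO, 109 with 2.5 μM and 108 with 5 μM JG231, which are log2 changes of 0.94 and 0.93 beside 1.03 and 0.93 for CLPX. DNAJA3, its J-domain partner, had 10.3, 12.8 and 16.8 FPKM, and GRPEL1 had 6.13, 8.45 and 8.10. The 2 members that were not higher at either dose were HSPE1, the co-chaperonin, and TRAP1. HSPE1 was lower at 2.5 μM by a log2 change of -0.49 and stood at -0.13 at 5 μM, and TRAP1 stood at -0.13 and -0.04 (both named after their values were seen). With the trend by transcript length removed HSPE1 was at -0.92 and -0.83 and TRAP1 at -0.26 and -0.27. With the common sum without mitochondrial and small RNA genes they were at -0.78 and -0.51, and at -0.42 and -0.42. In both settings each gene was lower past the threshold at both doses.
Among 15 partners and substrates of the proteases, 12 were higher and 2 lower at each dose, beside 36.4% and 36.5% higher and 43.4% and 45.1% lower of all genes. The medians were 0.81 (2.5 μM) and 0.88 (5 μM), beside 0.21 and 0.23 for genes averaging 5 FPKM or more. With the trend by transcript length removed, each of the 12 genes higher at 5 μM had a smaller change there. PHB1, PHB2 and PINK1 fell under the threshold at 5 μM (0.12, 0.22 and 0.19), while TFAM passed it at 0.43 (named after their values were seen). The medians of the list were not computed in that setting. MAIP1, a matrix protein that binds the AFG3L2 protease and guards newly made EMRE, had 5.55 FPKM with DMSO, 18.6 with 2.5 μM and 28.1 with 5 μM JG231. HAX1, a partner that HTRA2 needs and a client kept soluble by CLPB, had 35.7, 85.5 and 99.0 FPKM. The ratio of CLPB to HAX1 was lower than in DMSO, with a log2 change of -1.30 at 2.5 μM (-1.48 to -1.12) and -1.85 at 5 μM (-2.03 to -1.67). Their canonical transcripts differ in length, with 9963 bp for CLPB and 1109 bp for HAX1. With the trend by transcript length removed, CLPB was at 0.32 and 0.20 and HAX1 at 0.94 and 0.97. The ratio was then still lower than in DMSO, but by less, outside the intervals given. STOML2, a scaffold of YME1L1 and PARL, had 39.8, 74.6 and 95.6 FPKM, and ALAS1, a substrate of CLPXP and LONP1, had 22.5, 54.3 and 53.5. The 2 lower members were OPA1, with log2 changes of -0.32 and -0.75, and XIAP, which HTRA2 can inactivate, with -0.42 and -1.08 (named after their values were seen). With the trend by transcript length removed these were -0.07 and -0.38 for OPA1 and -0.10 and -0.58 for XIAP, so that neither passed the threshold at 2.5 μM.
Among the 10 stress kinases, DELE1 and bZIP factors, 6 were higher and 2 lower at each dose, beside the same shares of all genes. DDIT3 (CHOP) had 24.8 FPKM with DMSO, 338 with 2.5 μM and 397 with 5 μM JG231. ATF3, CEBPB and CEBPG had log2 changes at 5 μM of 3.89, 3.18 and 2.19, and all were also higher at 2.5 μM. DELE1, which OMA1 cleaves so that it activates the kinase HRI, had 9.88, 9.86 and 11.7 FPKM, and EIF2AK1, the gene of HRI, had 39.5, 39.5 and 38.2. Neither passed the threshold at either dose as deposited (named after their values were seen). With the common sum without mitochondrial and small RNA genes DELE1 was at -0.29 at 2.5 μM and EIF2AK1 at -0.29 and -0.43, and with the trend by transcript length removed DELE1 was at 0.46 at 5 μM. Of the other kinases of the list, EIF2AK3 was higher, with log2 changes of 1.05 and 0.89. The 2 lower members were EIF2AK2, with -0.47 and -0.84, and EIF2AK4, with -0.61 and -0.78 (all named after their values were seen). With the trend by transcript length removed EIF2AK2 was at -0.11 and -0.27 and EIF2AK4 at -0.42 and -0.50. GDF15, a secreted factor raised in mitochondrial stress, had 179 FPKM with DMSO, 1572 with 2.5 μM and 1637 with 5 μM JG231, while FGF21 was listed at 0 in DMSO and had at most 0.442 FPKM.
With the common sum without mitochondrial and small RNA genes, the medians became -0.08 and -0.20 for the other peptidases, 0.14 and 0.02 for the chaperones, and 0.53 and 0.50 for the partners and substrates at 2.5 μM and 5 μM. In that scaling 4 of the 13 other peptidases were higher and 6 lower at 2.5 μM, and 3 higher and 6 lower at 5 μM, beside the shares of all genes in that scaling given above. Of the 7 chaperones 2 were lower at each dose. Of the 15 partners and substrates 11 and 9 were higher, and 3 and 2 lower. Of the 10 stress kinases, DELE1 and bZIP factors 6 were higher at each dose, and 4 were lower at 2.5 μM and 3 at 5 μM.

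**Figure D4:**
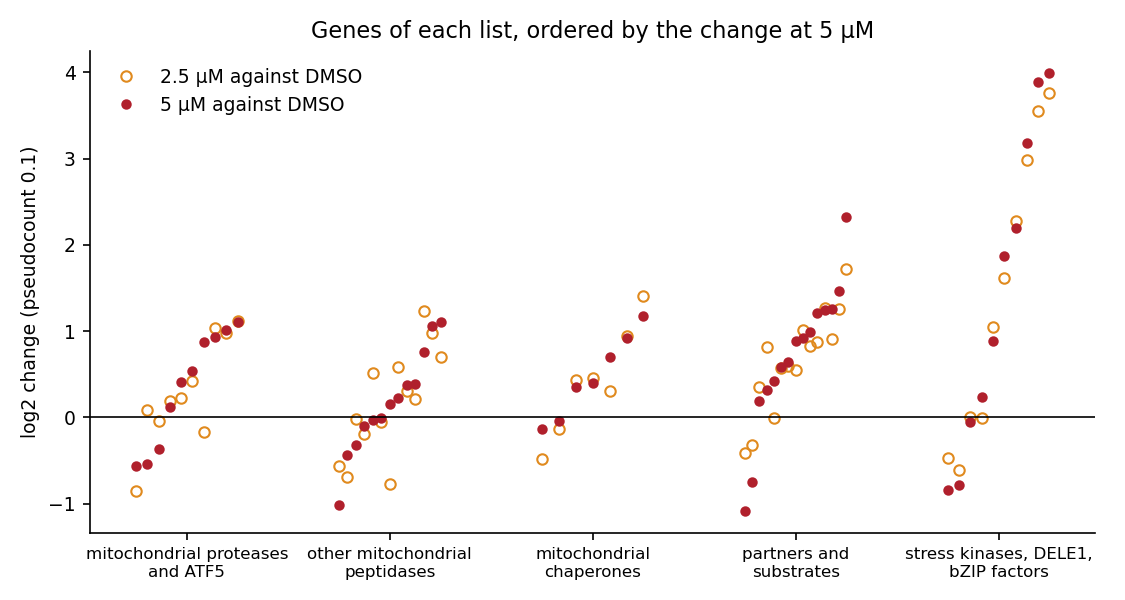
Log2 change against DMSO (pseudocount 0.1) for each gene of 5 lists at 2.5 μM (open orange) and 5 μM JG231 (filled red), ordered within a list by the change at 5 μM. The largest values at 5 μM are those of DDIT3 and ATF3 (3.89), and the highest of the 10 genes of the first list is LONP1 at 1.11.

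The paralogs were looked at for reads that could be shared. AFG3L1P, a transcribed pseudogene related to AFG3L2, had 3.30 FPKM with DMSO, 1.78 with 2.5 μM and 1.62 with 5 μM JG231, and the pseudogene copies AFG3L2P1 and YME1L1P1 were listed at 0. LONP2, the Lon protease of peroxisomes, had 3.86, 4.18 and 3.48 FPKM, log2 changes of 0.11 and -0.15 beside 1.12 and 1.11 for LONP1. HTRA1, the secreted relative of HTRA2, had 4.99, 0.43 and 0.53 FPKM, and HTRA3 and HTRA4 were listed at 0.

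**Figure D5:**
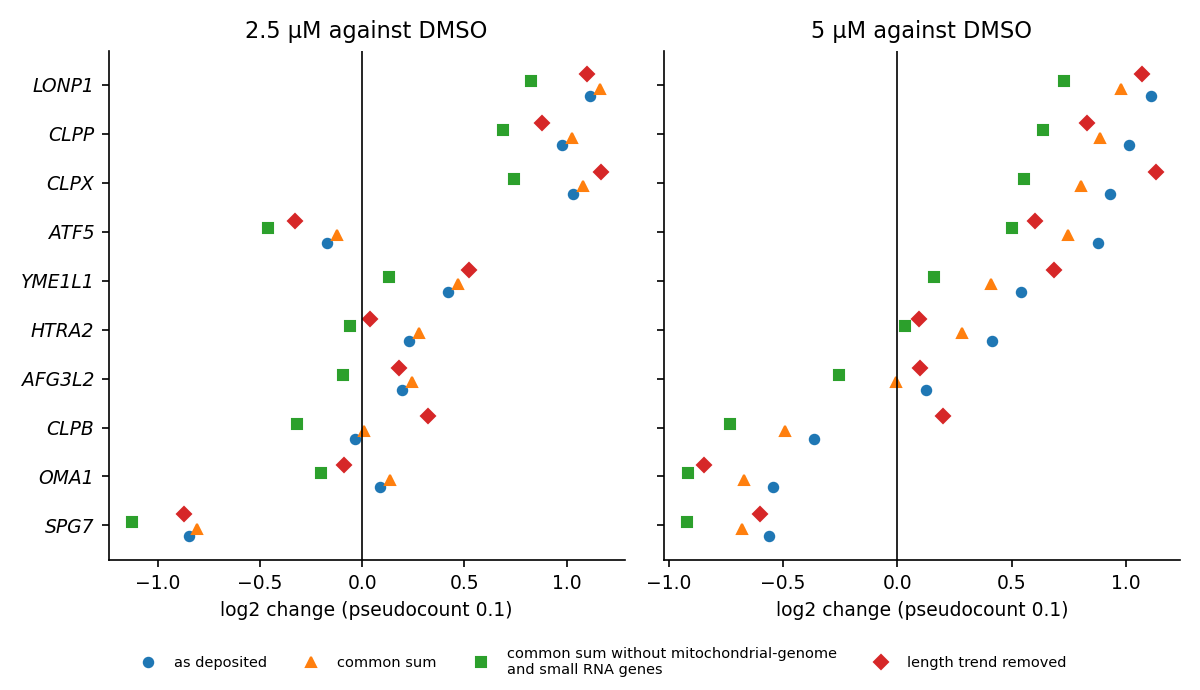
Log2 change at 2.5 μM (left) and 5 μM JG231 (right) against DMSO for the 10 genes, with FPKM as deposited, rescaled to a common sum, rescaled without mitochondrial-genome and small RNA genes, and with the trend by transcript length removed. LONP1, CLPP and CLPX stay above 0 and SPG7 below 0 in all of these, and CLPB at 5 μM lies on either side of 0.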

How the data were processed

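RNA-seq of H660 cells, 1 library per condition, was analysed. According to the methods, reads were aligned with HISAT and quantified with StringTie. The submitters' processing notes name HISAT2, featureCounts, GRCh38 and hg38, without versions. The annotation release is not given in the sources used here. The authors deposited FPKM, 1 column per library. No column was left out.
FPKM times joined exon length of GENCODE release 44 gave whole fragments, within 0.01, for 81.7% to 86.3% of genes with 1 transcript and under 50 fragments. For genes with several transcripts and under 10 fragments it was 45.5% to 51.8%, but 3.77% to 5.23% with the canonical transcript length, so gene values rest on joined exons. For CLPP the length found, 2278 bp, is 0.645 of that in release 44, and true counts may be whole multiples of those given. Counts were not modelled, as there was no replicate. Changes are log2 of FPKM plus 0.1 against DMSO, with the study's filter as read above. The 10 genes were fixed by name, and genes, lists and alternatives were chosen with earlier results of these data known. Besides the 10 genes, lists name up to 4 genes each, by size of change at 5 μM among those of equal sign at the 2 doses, beside the paralogs and ATF4, GDF15 and FGF21. Other list genes were named after their values were seen, and are marked so. Some marker genes of the lists are not reported here. Promoter sequences are those of RefSeq (GRCh38.p14). Alternatives were other pseudocounts, filters, thresholds and scalings, and a lowess fit on transcript length (fraction 0.3), subtracted from the changes. The scripts were tested on simulated data. Python 3.11.15, numpy 2.4.6, pandas 2.3.3, statsmodels 0.14.6 and matplotlib 3.10.9 were used.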

Additional observations from a re-analysis of the deposited data

Results flagged for a closer look

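Of the 10 genes, 2 had changes of opposite sign at the 2 doses with 1 of them past 0.25 on the log2 scale, and with 1 library per dose this difference was not tested. ATF5 was higher at 5 μM than at 2.5 μM by 1.05 on the log2 scale (-0.17 and 0.88 against DMSO). OMA1 was lower at 5 μM than at 2.5 μM, with a log2 difference of -0.63 (0.09 and -0.54 against DMSO). Among the 500 genes nearest to OMA1 in mean FPKM, 33.2% had a lower change at 5 μM against DMSO. Between the JG231 libraries 12.8% of them had a lower difference, with a robust standard deviation of 0.45. The counting interval of OMA1 at 2.5 μM, -0.13 to 0.30, includes 0, and its value there was -0.20 with the common sum without mitochondrial and small RNA genes and -0.09 with the length trend removed, the sign it had at 5 μM.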

How the results depend on the processing

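No paired analysis was possible because each condition had 1 library, and for the same reason no library could be left out. Of 160 values of single genes under the alternatives, 123 stayed within the counting interval of the reported value, 36 moved outside it and 1 that had passed 0.25 changed sign, that of CLPB at 5 μM, which became 0.20 with the length trend removed. Counting values under the threshold too, 6 of the 20 values by gene and dose took both signs, those of AFG3L2 and CLPB at both doses and of OMA1 and HTRA2 at 2.5 μM. Part of the 123 could not have moved. Summing of rows with 1 name changed nothing, as each gene matched 1 row. The recovered fragments give the centre of the interval itself, and centring at 2.5 μM subtracted a median of 0. The 123 therefore overstate how stable the values are. With an FPKM over 5, 0 of the 10 genes were lower at either dose, and the medians were 0.42 at 2.5 μM and 0.88 at 5 μM, since the low genes leave the list. With a threshold of 1, 2 were higher and 0 lower at both doses. The common sum gave a median of 0.34 at 5 μM. Without mitochondrial and small RNA genes in the sum, 3 were lower at 2.5 μM, and the medians were -0.077 at 2.5 μM and 0.10 at 5 μM. With the length trend removed, 2 were lower at 2.5 μM. The other pseudocounts, centring on the median gene, no expression filter and summing of rows with 1 name left the counts and medians near the reported values, and so did the recovered fragments for the medians, the counts not being run on them (an alternative chosen after seeing the data). The depth limits OMA1 and ATF5 most, with 298 and 288 fragments in DMSO.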
